A study of Brassica napus with 12 samples.

Results

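The PEG-1 line of canola (Brassica napus) was compared with the control line of the same experiment, over 2 libraries of each. These 4 libraries, out of 12 in all, were taken by the names of their columns, and no measured value entered the choice. PEG-1 is 1 of 2 selected lines of the PEG experiment. The other, PEG-2, has 2 libraries and was set against the same control libraries. A separate experiment, called EUE, holds 3 libraries of its own control line and 3 of a selected line, the EUE epiline. All 5 groups came from the cultivar labelled L. spp. oleifera (Metzg) Sinsk. f. biennis. All were 26 days old, had received no treatment and were sampled at the fourth leaf. The lines are epilines, picked according to the study for low respiration together with a high NAD(P)H content. The labels do not say how many plants or sublines stand behind a library, nor what PEG and EUE stand for. They call the libraries biological replicates, and nothing says that they came from separate plantings. The p-values below therefore measure the spread between these libraries.

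The RNA was polysomal. Several ribosomes can translate 1 mRNA at the same time, and such loaded mRNAs are heavy enough to be pelleted through sucrose, away from free transcripts. A level here rises with the amount of a transcript and with the part of it that is loaded, and these cannot be told apart. Leaf respiration burns sugars in mitochondria, and NADH and NADPH carry the reducing power that links it to photosynthesis and biosynthesis. Canola is an allopolyploid with ancestors close to Brassica rapa and Brassica oleracea, so most genes exist as near-identical copies from both sides. Reads shared between such copies may have been split between IDs or given to 1 of them, which the sources used here do not state, so the value of any single ID carries that uncertainty.

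Each row of the count table is a gene ID without a name. Of 60756 IDs, 21260 were joined pairs of a number with the prefix ERF and a number with the prefix ERC. A further 21922 had an ERF number only and 17574 an ERC number only. ERF numbers ran without a gap from 54331 to 97512 and ERC numbers without a gap from 23143 to 61976. The joined IDs kept a parallel order. Of 11941 pairs of joined IDs with consecutive ERF numbers, 11290 (94.5%) had ERC numbers at most 10 apart. The files give no gene names, and a search of the RefSeq gene table of the species matched 0 IDs. No function can be given for any ID, and the leaf label could not be checked against marker genes.

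Totals ran from 36288544 counts in control replicate 1 to 38248906 in PEG-1 replicate 2, so the 4 libraries were of like depth. Of all IDs, 16327 had no count in any of the 4. Levels are given in CPM, read counts relative to the scaled library size. CPM is not per transcript length, so it compares an ID between libraries. Where IDs are sorted by CPM, as in the abundance ranges, the order is one of read counts and not of transcript number. After a filter on low counts 36410 IDs were tested, 17297 of them joined, 10485 ERF only and 8628 ERC only.

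The control libraries differed from each other more than most control libraries differed from PEG-1 libraries. Among 17044 IDs that averaged at least 5 CPM in the 6 PEG libraries, 1511 (8.87%) differed at least 2-fold between the 2 controls, on a scale of log2(CPM + 0.5). Between the 2 PEG-1 libraries 344 (2.02%) did so. Control replicate 1 differed in 876 IDs from PEG-1 replicate 1 and in 1664 from PEG-1 replicate 2. Control replicate 2 differed in 601 and 428. The closest neighbour of control replicate 1 was PEG-2 replicate 1, with 302 such IDs, and that of control replicate 2 was PEG-2 replicate 2, with 289. A difference between PEG-1 and its control is read below against this spread, part of which went with the replicate number. Over 17413 IDs that averaged at least 5 CPM in the 12 libraries, the step between replicates 1 and 2 in PEG-1 correlated with that in the control (r = 0.534). The main fit and the description by overlap below leave the replicate number out.

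**Figure D1:**
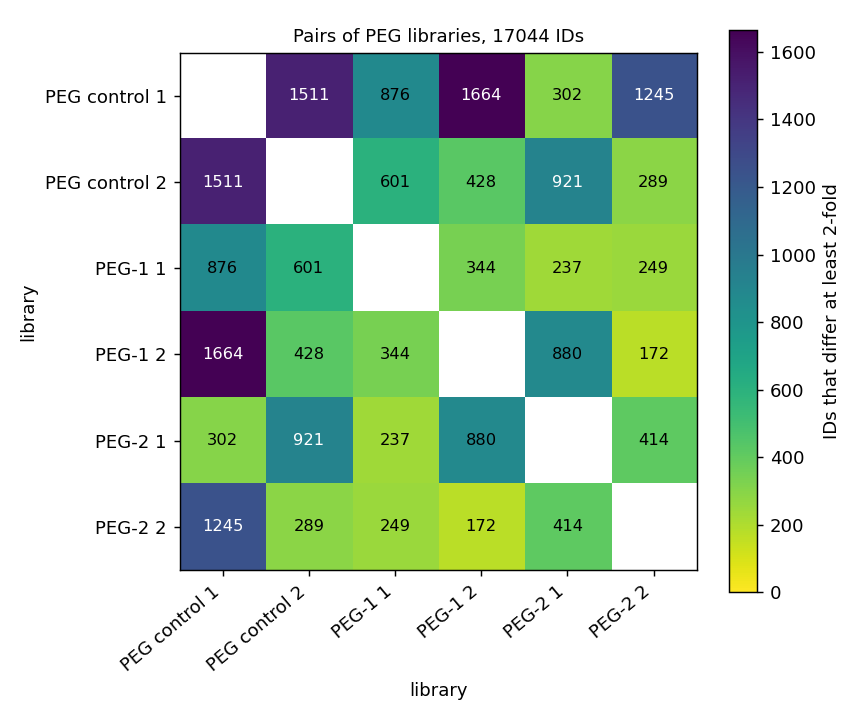
Number of IDs that differ at least 2-fold between each pair of the 6 PEG libraries, among 17044 IDs that averaged at least 5 CPM, as log2(CPM + 0.5). Rows and columns are libraries and darker cells hold more IDs. The 2 controls differ in 1511 IDs, and the 2 PEG-1 libraries in 344.

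Which ribosome-bound transcripts differed in the first PEG line was asked with 1 fit over all 12 libraries. edgeR's quasi-likelihood test with Benjamini-Hochberg adjustment called 0 of the 36410 IDs (0%) at an adjusted p under 0.05, and the smallest adjusted p was 0.749. A transcript can be lower because fewer cells of a type were in the leaf or because each cell held less of it, and these cannot be told apart in whole leaf. At an unadjusted p under 0.05 there were 1310 IDs, 3.6% of those tested, of which 684 were higher and 626 lower in PEG-1. DESeq2 called 145 IDs, 0.398% of those tested, with 132 higher (0.363%) and 13 lower (0.0357%). The DESeq2 count fell to 10 without PEG-1 replicate 2, of which 3 were higher and 7 lower, so the lean to higher calls was not seen without that library. It was 24 without control replicate 1 (21 higher), 93 without control replicate 2 (72 higher) and 147 without PEG-1 replicate 1 (136 higher). When only the 6 PEG libraries entered edgeR, 1 ID passed, ERF56853-ERC48126, which is described with the IDs that were near 0 in the control.

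Without a test, direction was described by whether both PEG-1 libraries lay on the same side of both controls. Of the tested IDs, 5367 (14.7%) were higher without overlap and 5625 (15.4%) lower, and among those from 5 CPM upward 14.1% and 14.9%. With an edgeR fold change of at least 2 in addition, 1209 (3.32%) were higher and 1062 (2.92%) lower. In the scarce and in the abundant range these 2 directions were not split alike. Below a mean of 5 CPM, 943 IDs (4.88% of 19335) were higher and 950 (4.91%) lower. From 5 CPM upward, 266 (1.56% of 17075) were higher and 112 (0.656%) lower, so 70.4% of these abundant IDs were higher. That share was 55.4% without PEG-1 replicate 1, 48.8% without PEG-1 replicate 2, 61.5% without control replicate 1 and 54.4% without control replicate 2. Without PEG-1 replicate 2 there was no excess of higher IDs. A group left with 1 library meets the rule of no overlap more easily, so these shares are not like for like with the 70.4%.

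By abundance, the share of IDs that met both conditions was largest in the scarcest range, where the error of a fold change was largest too. Under 1 CPM, 703 of 9072 IDs (7.75%) were at least 2-fold higher and 733 (8.08%) lower, and the median standard error of a log2 fold change was 0.82. From 1 to 5 CPM, 240 of 10263 (2.34%) were higher and 217 (2.11%) lower, with a median standard error of 0.42. From 5 to 20 CPM the counts parted, with 185 of 10128 (1.83%) higher and 72 (0.711%) lower at a standard error of 0.29. From 20 to 100 CPM, 78 of 5777 (1.35%) were higher and 35 (0.606%) lower. At 100 CPM and over, 3 of 1170 (0.256%) were higher and 5 (0.427%) lower.

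The share of all counts held by each ID class differed between the lines by less than the spread between replicates. Joined IDs held 70.5% ± 0.376 (SD, n = 2) of the counts in PEG-1 and 70.5% ± 0.279 (SD, n = 2) in the control. ERF-only IDs held 17.7% ± 0.140 (SD, n = 2) against 17.6% ± 0.231 (SD, n = 2), and ERC-only IDs 11.8% ± 0.235 (SD, n = 2) against 11.9% ± 0.0485 (SD, n = 2). Each difference gave p = 1 in a two-sided exact permutation test over libraries, in which 2 against 2 cannot go below 0.333 and so cannot show a difference. Without the 100 most abundant IDs, ERF-only IDs held 19.11% and 19.27% of the counts in PEG-1 and 18.81% and 19.05% in the controls, without overlap (exact permutation p = 0.333). Joined IDs then held 67.53% and 67.05% in PEG-1 and 67.78% and 67.41% in the controls, which overlapped (exact permutation p = 0.667). The median log2 fold change was -0.04 over joined, -0.01 over ERF-only and -0.01 over ERC-only IDs, beside -0.03 over all tested IDs, and in each class it was above 0 or below 0 depending on the library left out. Among joined IDs 476 (2.75%) were at least 2-fold higher and 443 (2.56%) lower. Among ERF-only IDs 412 (3.93%) were higher and 345 (3.29%) lower, and among ERC-only IDs 321 (3.72%) and 274 (3.18%). Of the IDs from 5 CPM upward 61.7% were joined.

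Within the classes, the balance of higher and lower IDs varied with abundance. From 5 to 20 CPM, 105 joined IDs (1.84% of 5716) were higher and 43 (0.752%) lower. Of the ERF-only IDs 50 (1.99% of 2510) were higher and 18 (0.717%) lower, and of the ERC-only IDs 30 (1.58% of 1902) and 11 (0.578%). From 20 to 100 CPM the joined IDs had 57 higher (1.44% of 3955) and 25 lower (0.632%). The ERF-only IDs had 16 (1.48% of 1079) and 5 (0.463%), and the ERC-only IDs 5 and 5 (each 0.673% of 743). At 100 CPM and over there were 2 and 3 of 864 joined, 0 and 1 of 187 ERF-only and 1 and 1 of 119 ERC-only IDs. Over all classes the excess of higher IDs from 5 CPM upward was not seen without PEG-1 replicate 2. Under 1 CPM the joined IDs leaned the other way, with 190 higher (7.30% of 2602) and 270 lower (10.4%). There 279 ERF-only IDs (7.97% of 3499) were higher and 249 (7.12%) lower, and 234 ERC-only IDs (7.88% of 2971) higher and 214 (7.20%) lower.

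**Figure D2:**
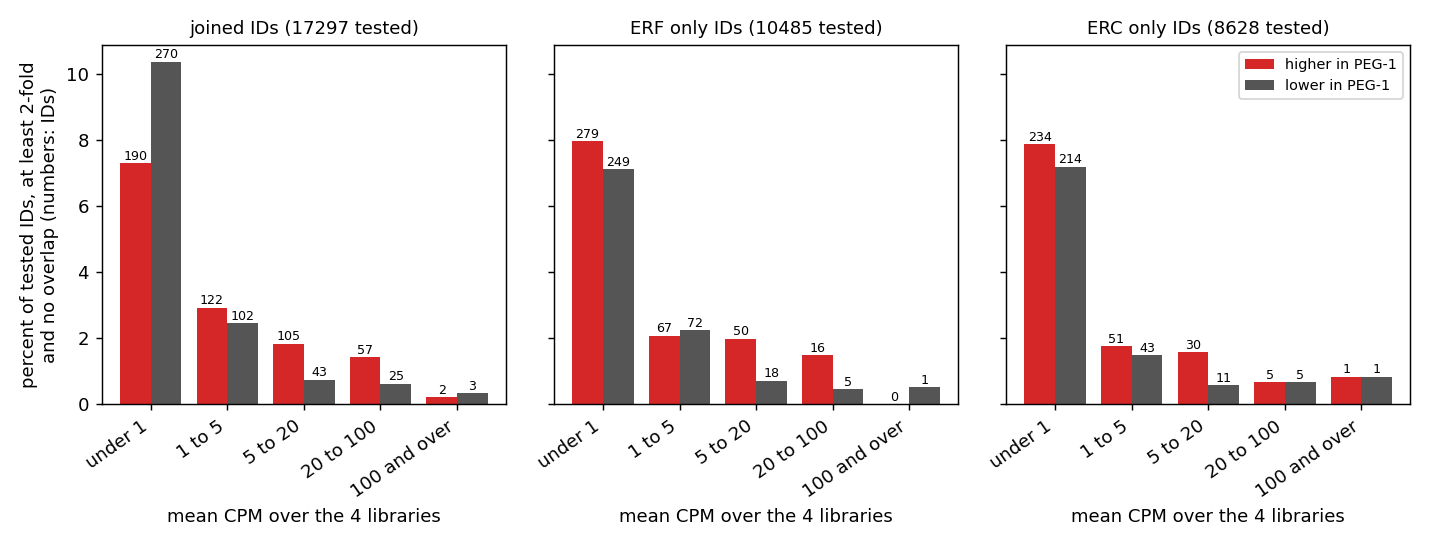
Percent of tested IDs that were higher (red) or lower (grey) in both PEG-1 libraries than in both controls, with an edgeR fold change of at least 2. Bars are split by ID class and by mean CPM over the 4 libraries, and carry the number of IDs. From 5 to 20 CPM higher IDs outnumber lower ones in each class, with 105 against 43 among joined IDs.

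The 266 abundant IDs that were higher comprised 164 joined, 66 ERF-only and 36 ERC-only IDs. Their share of joined IDs, 61.7%, was that of all IDs from 5 CPM upward. The median log2 fold change was 1.74 (3.35-fold), with 109 IDs at 4-fold or more and 37 at 8-fold or more. The list was chosen for that difference, so these values only describe it. Its median level was 4.10 and 6.37 CPM in control replicates 1 and 2 and 14.6 and 25.4 CPM in PEG-1 replicates 1 and 2. PEG-1 replicate 2 lay above replicate 1 for 245 of the 266 (92.1%), and at least 2-fold above it for 97, whereas among all IDs from 5 CPM upward it lay above for 51.7%. Of the 266, 222 had an unadjusted edgeR p under 0.05 and 70 were called by DESeq2, beside 552 and 76 of all 17075 IDs of that abundance, and the list was chosen for the difference these counts measure. In PEG-2, which shares its controls with PEG-1, the median level of the same IDs was 10.6 and 16.7 CPM.

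The EUE experiment shares no library with this comparison. There the 266 IDs had a median level of 6.15, 2.95 and 4.69 CPM in the controls and of 8.56, 15.4 and 26.1 CPM in the EUE epiline. For 219 of them (82.3%) all 3 epiline libraries lay above all 3 EUE controls, and for 0 they lay below. Among all IDs from 5 CPM upward 578 (3.39%) lay above, and the 219 were 37.9% of those. The median log2 fold change of the 266 in EUE was 1.93. EUE epiline replicate 1 stood lowest of its group, as PEG-1 replicate 1 did in PEG-1, and IDs that differ this much between replicates are not separate trials, so no test was made over the 219. Of the 109 IDs at 4-fold or more in PEG-1, 105 (96.3%) also lay above in EUE. Without a minimum fold it was 395 (16.4%) of the 2404 IDs from 5 CPM upward that were higher without overlap. The share thus rose with the fold change in PEG-1, with the 82.3% above at the 2-fold limit. The share among the higher IDs was 69.5% without PEG-1 replicate 1, 66.9% without PEG-1 replicate 2, 69.3% without control replicate 1 and 43.9% without control replicate 2, in lists of 377, 175, 300 and 722 IDs. For single IDs the difference between the PEG-1 and the EUE effect was tested in edgeR over all 36410 tested IDs, which called 0. Of the 36410, 405 had an unadjusted edgeR p below 0.05, beside 1310 for the PEG-1 effect and 1519 for the EUE effect. Each of these effects alone also gave 0 calls, so the test of their difference cannot show that they were alike.

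The 112 abundant IDs that were lower seldom separated the groups of the EUE experiment. They comprised 71 joined, 24 ERF-only and 17 ERC-only IDs, and their median log2 fold change was -1.38 (2.60-fold), with 20 at 4-fold or more and 6 at 8-fold or more. Their median level was 17.3 and 21.4 CPM in the controls and 6.22 and 6.55 CPM in PEG-1, so the PEG-1 libraries lay close together. In PEG-2 it was 14.7 and 11.6 CPM. In EUE it was 12.2, 24.1 and 7.75 CPM in the controls and 13.7, 8.41 and 9.17 CPM in the epiline, where the groups overlapped. Only 3 of the 112 (2.68%) were lower without overlap in EUE, near the 2.78% among all IDs from 5 CPM upward. The median log2 fold change of the 112 in EUE was -0.36, beside -0.03 over all IDs from 5 CPM upward. Of the 112, 87 had an unadjusted edgeR p under 0.05 and 5 were called by DESeq2, again beside 552 and 76 of the 17075 and for the difference that chose them. The count of 112 was 304 without PEG-1 replicate 1, 184 without PEG-1 replicate 2, 188 without control replicate 1 and 606 without control replicate 2.

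**Figure D3:**
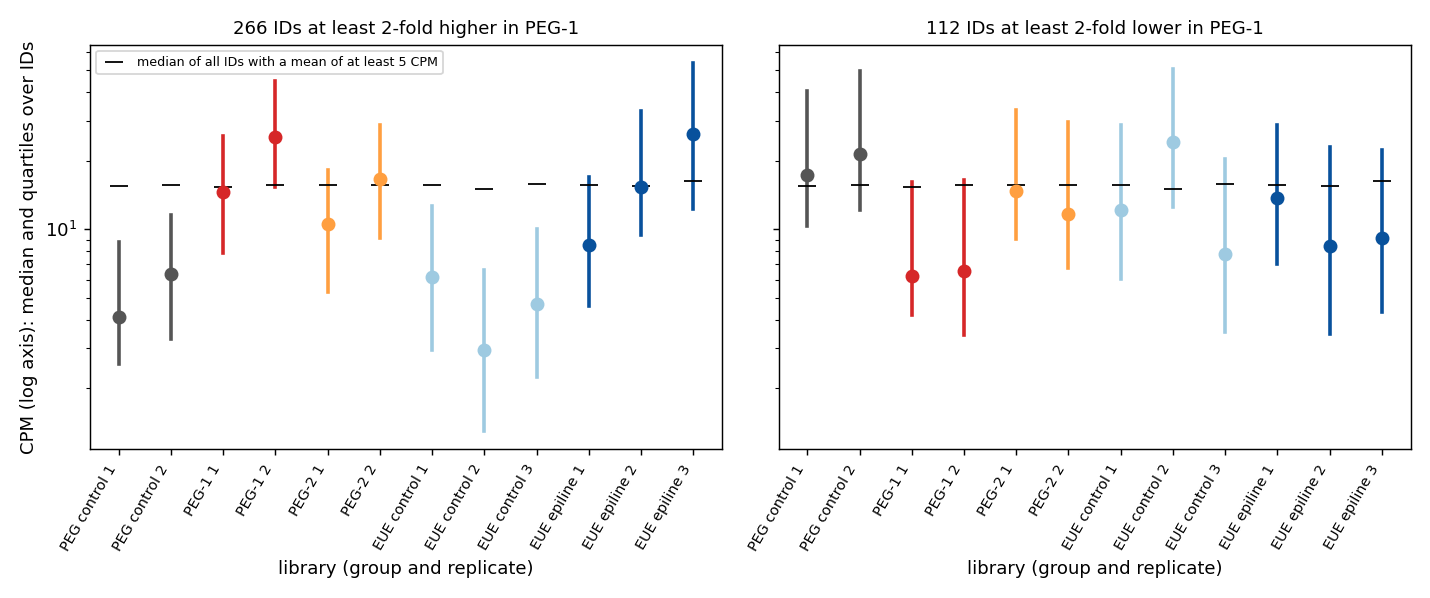
Level of the 266 higher and 112 lower IDs from 5 CPM upward in each of the 12 libraries, on a log axis of CPM. Points are medians and bars quartiles over the IDs, and black dashes are the medians of all 17075 IDs of that abundance. The higher IDs go from 4.10 and 6.37 CPM in the PEG controls to 14.6 and 25.4 CPM in PEG-1, by which they were chosen, and from 2.95 to 6.15 CPM in the EUE controls to 8.56 to 26.1 CPM in the EUE epiline.

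DESeq2's 132 higher calls comprised 77 joined, 29 ERF-only and 26 ERC-only IDs, 61 of them under 5 CPM, with a median log2 fold change of 3.20. PEG-1 replicate 2 was the higher PEG-1 library in 128 of them, beside 51.7% of the IDs from 5 CPM upward, a range that leaves out the 61. In EUE 125 of the 132 lay above all controls without overlap and 0 below, beside 3.8% of all tested IDs above. The 13 lower calls comprised 8 joined, 4 ERF-only and 1 ERC-only ID, with a median log2 fold change of -2.47. In EUE 1 of these was lower without overlap and 0 were higher, beside 2.81% of all tested IDs lower. DESeq2 took its spread from all 12 libraries, so the EUE libraries entered these calls.

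Single IDs were named by a rule of smallest edgeR p within each class, among IDs from 5 CPM upward without overlap. Their edgeR adjusted p ran from 0.749 to 0.869, so none of them passed that test. Among the joined IDs, ERF61844-ERC57624 was at 3.01 and 3.17 CPM in the controls, 28.1 and 99.8 CPM in PEG-1 and 17.9 and 46.7 CPM in PEG-2. The controls lay close together and far below both PEG-1 libraries, of which replicate 2 was the higher. The log2 fold change came to 4.37 ± 0.80 (SE), and it passed in DESeq2 (adjusted p = 3.14e-06; 1.87e-06 to 1 over all alternatives). In EUE it was at 3.56, 1.20 and 2.43 CPM in the controls and 14.1, 31.5 and 51.7 CPM in the epiline. ERF81066-ERC23699 was at 0.398 and 0.634 CPM in the controls and 7.85 and 19.0 CPM in PEG-1, again with replicate 2 on top. PEG-1 exceeded the control by a log2 fold change of 4.69 ± 0.87 (SE; DESeq2 adjusted p = 3.89e-06; 3.89e-06 to 1 over all alternatives).

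Of the joined IDs that were lower, ERF70372-ERC55750 was at 91.6 and 43.3 CPM in the controls and 31.3 and 17.2 CPM in PEG-1. Replicate 1 was the higher library in both groups, and control replicate 2 lay not far above PEG-1 replicate 1. The log2 fold change came to -1.48 ± 0.34 (SE; DESeq2 adjusted p = 0.0213; 0.00105 to 1 over all alternatives). ERF59304-ERC40059 was at 27.9 and 24.5 CPM in the controls and 10.8 and 10.5 CPM in PEG-1, so the gap between the groups was far wider than either pair. This gave a log2 fold change of -1.30 ± 0.31 (SE; DESeq2 adjusted p = 0.0353; 0.0353 to 1 over all alternatives). In PEG-2 it was at 33.1 and 26.9 CPM, and in EUE the groups overlapped, at 43.8, 49.9 and 23.8 CPM in the controls and 47.4, 37.2 and 44.2 CPM in the epiline.

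Among the ERF-only IDs, ERF79070 was at 1.65 and 1.498 CPM in the controls and 7.41 and 24.9 CPM in PEG-1, with replicate 2 on top. The log2 fold change came to 3.36 ± 0.65 (SE; DESeq2 adjusted p = 0.000147; 6.21e-06 to 1 over all alternatives). ERF91581 was at 7.22 and 5.59 CPM in the controls and 25.7 and 38.3 CPM in PEG-1, a narrower spread, with a log2 fold change of 2.32 ± 0.48 (SE; DESeq2 adjusted p = 0.00201; 0.00201 to 1 over all alternatives). Of the lower ones, ERF80893 was at 14.6 and 14.2 CPM in the controls and 4.53 and 5.69 CPM in PEG-1. This was a log2 fold change of -1.49 ± 0.28 (SE; DESeq2 adjusted p = 0.00207; 0.00207 to 1 over all alternatives). It was at 14.7 and 11.3 CPM in PEG-2, and in EUE at 14.1, 19.9 and 12.8 CPM in the controls and 16.3, 18.4 and 12.5 CPM in the epiline, where the groups overlapped. ERF61672 was at 33.8 and 26.3 CPM in the controls and 15.8 and 16.0 CPM in PEG-1, and did not pass in DESeq2 (adjusted p = 0.0513; 0.0513 to 1 over all alternatives).

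Among the ERC-only IDs, ERC55343 was at 0.228 and 0.231 CPM in the controls, 8 counts in each, and at 4.59 and 19.4 CPM in PEG-1. Both PEG-1 libraries stood far above, and replicate 2 was again the higher. Its fitted log2 fold change was 5.69 ± 1.31 (SE; DESeq2 adjusted p = 0.0254; 0.0254 to 1 over all alternatives). ERC60430, the other higher one, is described with the IDs near 0. ERC28714 was lower, at 15.6 and 13.5 CPM in the controls and 7.08 and 6.61 CPM in PEG-1, and ERC31070 was at 52.7 and 45.2 CPM against 27.9 and 22.4 CPM. In both the libraries of a group lay close together, with log2 fold changes of -1.09 ± 0.28 and -0.96 ± 0.25 (SE). Neither passed in DESeq2, with adjusted p of 0.0742 (0.0626 to 1 over all alternatives) and 0.0801 (0.0801 to 1).

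At 100 CPM and over, ERF54332-ERC23709 was at 22.9 and 30.9 CPM in the controls and 182 and 391 CPM in PEG-1. It was at 111 and 197 CPM in PEG-2, at 42.2, 13.0 and 22.5 CPM in the EUE controls and at 89.6, 331 and 404 CPM in the EUE epiline. The libraries of each selected line lay above those of its own control. In PEG-1 the log2 fold change came to 3.41 ± 0.73 (SE; DESeq2 adjusted p = 0.00041; 0.00041 to 1 over all alternatives). ERC46331 was at 39.1 and 44.0 CPM in the controls and 130 and 222 CPM in PEG-1, a log2 fold change of 2.08 ± 0.57 (SE; DESeq2 adjusted p = 0.0484; 0.0484 to 1 over all alternatives). In PEG-2 it was at 53.4 and 80.8 CPM. The lower ones differed less, and both also lay below the shared controls in PEG-2. ERF92584-ERC54357 was at 190 and 146 CPM in the controls, 114 and 101 CPM in PEG-2 and 109 and 92.3 CPM in PEG-1. ERF56090-ERC34308 was at 150 and 173 CPM in the controls, 113 and 127 CPM in PEG-2 and 91.8 and 83.0 CPM in PEG-1. The log2 fold changes were -0.74 ± 0.20 and -0.89 ± 0.26 (SE), and DESeq2 called neither, with adjusted p of 0.0724 (0.0678 to 1 over all alternatives) and 0.194 (0.115 to 1).

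ERF70161-ERC56186 had the smallest p of all tested IDs. It was at 2.10 and 1.61 CPM in the controls, 5.92 and 8.16 CPM in PEG-1 and 6.05 and 5.47 CPM in PEG-2. In PEG-1 the log2 fold change came to 1.92 ± 0.35 (SE; edgeR adjusted p = 0.749; DESeq2 0.000369, the lowest of all alternatives, which reached 1). In EUE it was at 1.57, 0.999 and 1.22 CPM in the controls and 2.03, 2.56 and 3.53 CPM in the epiline, without overlap. Of the 18 IDs named by rule, 10 were higher in PEG-1, and all 10 were higher without overlap in EUE too, beside 3.8% of all tested IDs. Of the 8 that were lower, 2 were lower without overlap in EUE, ERF70372-ERC55750 and ERF61672, beside 2.81% of all tested IDs, and 0 were higher. In PEG-2, which shares the controls, ERF61672 was at 22.2 and 15.5 CPM and ERC31070 at 43.2 and 39.7 CPM. Both lay below both controls there, as did ERF92584-ERC54357 and ERF56090-ERC34308, while the rest of the 8 overlapped the controls in PEG-2. The p behind the rule came from the fit over all 12 libraries, so the spread in EUE entered the choice of these IDs.

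The 100 most abundant IDs, all with a mean of at least 1193 CPM, held 37.8% and 37.2% of the counts in PEG-1 and 38.4% and 38.8% in the controls. None differed 2-fold. Their log2 fold changes ran from -0.44 to 0.31 with a median of -0.05, and 2 were higher and 14 lower without overlap, beside 9.74% and 13.7% of all IDs at 100 CPM and over. The ID with the highest CPM, ERF91594, named after its values were seen, was at 24379 and 31357 CPM in the controls and 25054 and 27816 CPM in PEG-1, so PEG-1 lay inside the control range. 

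IDs that went from near 0 to expressed were sought among the tested IDs, as those with at most 6 counts (3 read pairs) in each control and at least 1 CPM in each PEG-1 library. There were 12, comprising 8 joined, 2 ERF-only and 2 ERC-only IDs. In the opposite direction, from at least 1 CPM in both controls to at most 6 counts in both PEG-1 libraries, there were 0. Leaving out a library drops a condition, so the counts of 12 and 0 can then only stay or rise. The first was 48 without PEG-1 replicate 1 and 12 without PEG-1 replicate 2. It was 16 without control replicate 1 and 36 without control replicate 2. The opposite direction then had 4, 9, 6 and 10. Single libraries of the same group also switched. Between the controls, 54 IDs went from near 0 in replicate 1 to at least 1 CPM in replicate 2 and 104 the other way, and between the PEG-1 libraries 31 and 8. From control replicate 1 to PEG-1 replicates 1 and 2 there were 41 and 159, and from control replicate 2 41 and 59. The other way, 29 and 45 IDs were near 0 in PEG-1 replicate 1 and at 1 CPM or more in control replicates 1 and 2, and 65 and 11 were near 0 in PEG-1 replicate 2. With at most 2 counts as near 0 there were 7 such IDs, and with at least 5 CPM as expressed 4. With up to 10 counts as near 0 there were 18 and 4 in the opposite direction, with up to 20 counts 60 and 25, and with at least 0.5 CPM as expressed 27 and 11.

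The 2 with the highest level in PEG-1 differed in how well their libraries matched. ERF56853-ERC48126, a joined ID, had 2 counts in each control and 446 and 426 counts in the PEG-1 libraries, or 12.3 and 11.4 CPM. The PEG-1 libraries were close to equal and the controls were at the level of 1 read pair. The ratio of summed read pairs, scaled to library size, was 207 with an exact 95% interval of 57.1 to 1719, which covers counting error only. The log2 fold change came to 7.62 ± 1.65. (SE) edgeR gave an adjusted p of 0.749 over all 12 libraries, 0.00284 with the 6 PEG libraries alone and 0.0468 with the 4 libraries alone, and DESeq2 gave 0.00175 (0.00175 to 1 over all alternatives). Why the fits differ was not tested. Without EUE epiline replicate 3 the edgeR adjusted p was 0.527, and without EUE control replicate 1 it was 0.797. An adjusted p also depends on the other IDs. The ID's own unadjusted edgeR p was 0.000662 over all 12 libraries and 8.25e-08 with the 6 PEG libraries alone. It was 0.000297 without EUE epiline replicate 3. With 1 EUE library left out it ran from 9.02e-05 (without EUE control replicate 1) to 0.000949 (without EUE epiline replicate 2). The ID had 1.36, 0.04997 and 0.0972 CPM in the EUE controls and 4.22, 15.6 and 52.1 CPM in the EUE epiline, without overlap. In PEG-2 it was at 4.36 and 4.80 CPM.

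ERC60430, an ERC-only ID, had 6 and 2 counts in the controls and 158 and 746 in PEG-1, or 4.37 and 20.03 CPM, so replicate 2 carried most of its level. The ratio was 108 with an exact 95% interval of 41.7 to 396. The log2 fold change came to 6.70 ± 1.26 (SE), and edgeR gave an adjusted p of 0.749 and DESeq2 one of 3.14e-06 (1.87e-06 to 1 over all alternatives). In PEG-2 it was at 1.16 and 9.30 CPM, in the EUE controls at 0.262, 0.04997 and 0.0972 CPM and in the EUE epiline at 2.08, 4.398 and 6.72 CPM.

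Of the 12, 4 had no count in either control, and 3 more had none in 1 control. The joined IDs among the 4, named after their values were seen, were ERF64687-ERC35174, ERF89913-ERC43551 and ERF85094-ERC23175. ERF64687-ERC35174 had 88 and 498 counts in PEG-1, or at least 46.0-fold more than a floor of 3 read pairs in each control. ERF89913-ERC43551, with 216 and 320 counts, was at least 42.4-fold higher, and ERF85094-ERC23175, with 184 and 250, at least 34.3-fold. In the latter 2 the PEG-1 libraries were nearer to each other than in ERF64687-ERC35174. The fourth, ERF81604, had 40 and 132 counts and was at least 13.5-fold higher. Of the 12, DESeq2 called 11, beside 0.398% of all tested IDs, though the 12 were picked for the same difference. The exception was ERF67136 with an adjusted p of 0.0555. The edgeR adjusted p of the 12 ran from 0.749 to 0.924.

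Most of the 12 also differed in the EUE experiment, which had no part in choosing them. For 11 of the 12 all EUE epiline libraries lay above all EUE controls, and for 0 below, beside 3.8% of all tested IDs above. Their EUE log2 fold changes ran from 3.81 to 7.55 with a median of 5.67, beside a median of -0.03 over all tested IDs. The edgeR adjusted p in EUE was between 0.272 and 0.932, so none passed there either. The ID that overlapped was ERF76480-ERC51801, with 1.38 and 4.89 CPM in PEG-1 and at most 0.538 CPM in the EUE epiline. PEG-1 replicate 2 exceeded replicate 1 in 10 of the 12, beside 51.7% of the IDs from 5 CPM upward, though most of the 12 averaged less than that. In PEG-2 the 12 IDs lay between 0.210 and 9.30 CPM, each above the highest control value of 0.171 CPM, and 5 reached 1 CPM in both libraries. The rise was thus not particular to PEG-1, but PEG-2 shares the controls in which the 12 were picked as near 0.

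**Figure D4:**
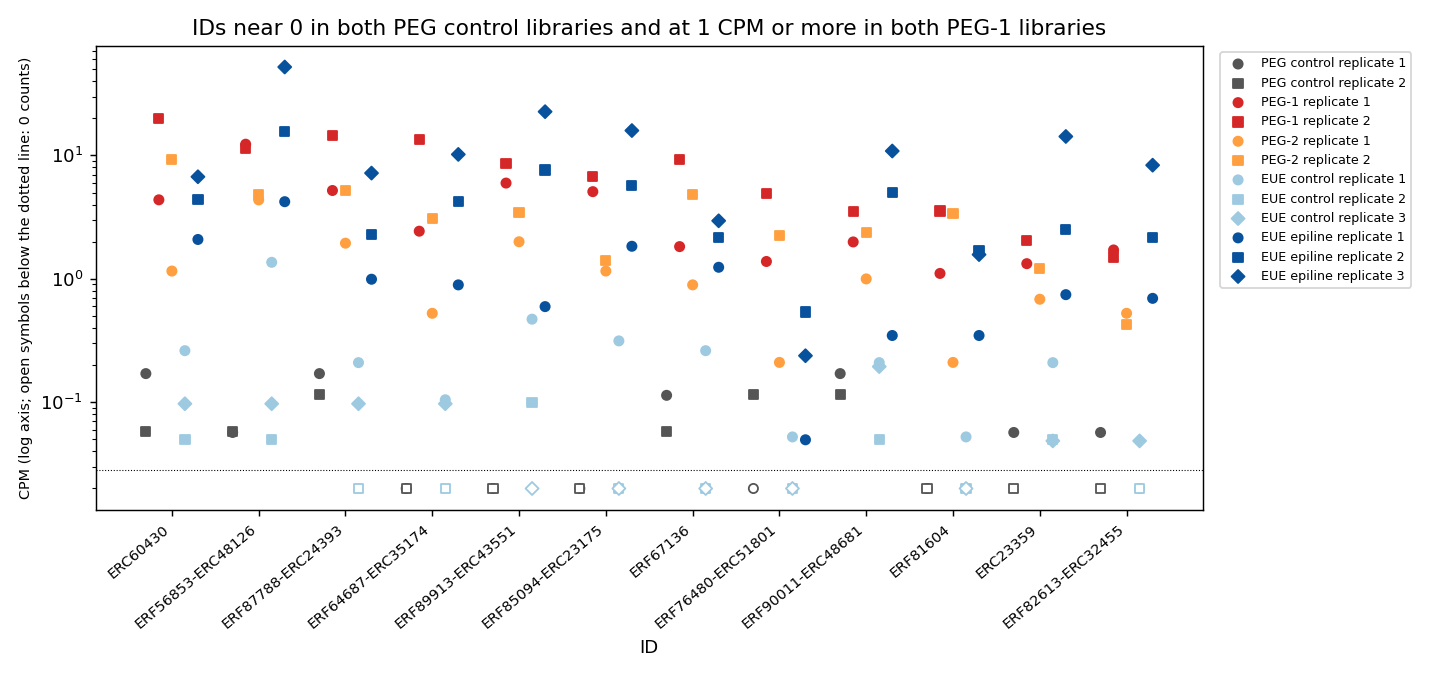
Level of the 12 IDs near 0 in both PEG controls and at 1 CPM or more in both PEG-1 libraries, in all 12 libraries, on a log axis of CPM. Each symbol is 1 library, coloured by group, and open symbols below the dotted line had no count. PEG-1 lies between 1.11 and 20.03 CPM and the PEG controls at or below 0.171 CPM.

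ID numbers without gaps allow neighbours to be compared, although the files do not say that numbers follow the position on a chromosome. Along the 27782 tested IDs with an ERF number, the longest run of consecutive IDs that were all lower without overlap held 9 IDs, ERF76433 to ERF76441, all ERF only. It was the 1 run of that length, and the longest run of higher IDs held 5, with 4 such runs. Beside it stands the 15.4% of all tested IDs that were lower. Summed over the 9 IDs the level was 19.1 and 23.2 CPM in the controls and 7.24 and 6.12 CPM in PEG-1. PEG-2 had 8.25 and 12.2 CPM, the EUE controls 10.9, 14.0 and 5.49 CPM and the EUE epiline 12.8, 5.83 and 3.48 CPM. Both PEG control sums lay above those of every other library, so PEG-2 too was below its controls and the lower sum was not particular to PEG-1. By single ID PEG-2 was not lower throughout, and at ERF76434 both its libraries lay above both controls. In EUE the groups overlapped, and 0 of the 9 were lower there without overlap.

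The ID of the run with the highest CPM was ERF76435, at 7.85 and 9.68 CPM in the controls and 3.65 and 2.52 CPM in PEG-1. The log2 fold changes of the 9 IDs ran from -4.13 to -1.32 with a median of -1.92. The largest was that of ERF76439, with 16 and 54 counts in the controls and 0 and 4 in PEG-1. Unadjusted edgeR p ran from 0.00727 to 0.153, with 5 under 0.05, the edgeR adjusted p from 0.956 to 1, and DESeq2 called 0. The run was found by its values, so no test is given for it. Adjacent IDs may also share reads where they are near-identical copies, which was not tested.

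**Figure D5:**
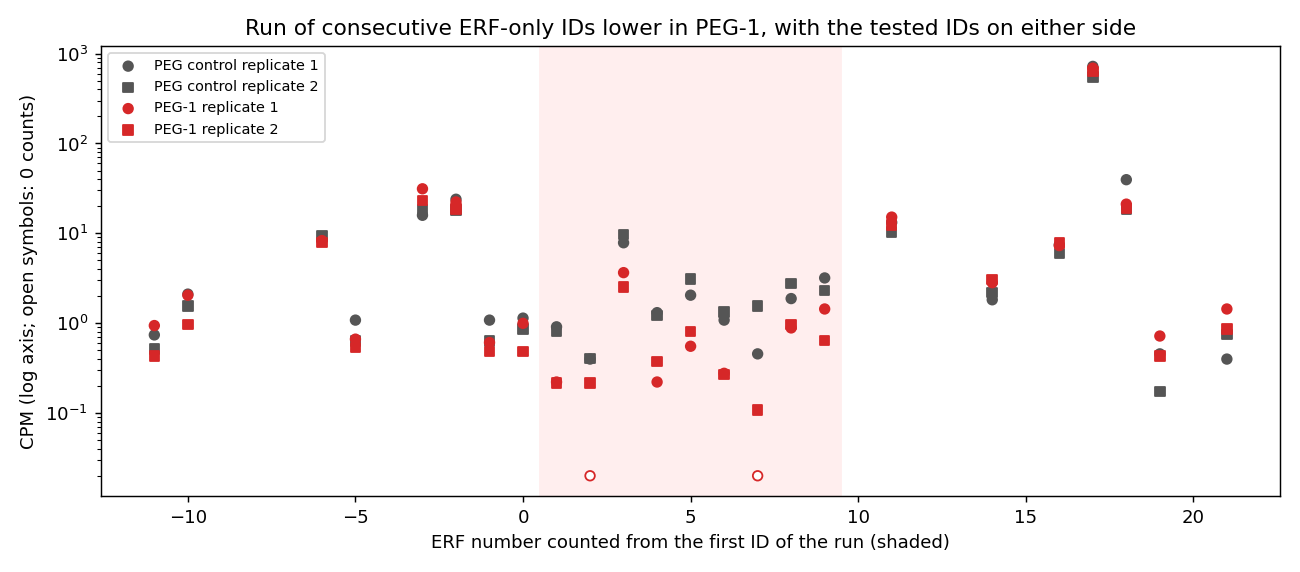
Level of the 9 consecutive ERF-only IDs that were lower in both PEG-1 libraries (shaded) and of the tested IDs on either side, on a log axis of CPM against the ERF number counted from the first ID of the run. Each symbol is 1 of the 4 libraries, and open symbols had no count. Inside the run both PEG-1 libraries lie below both controls at each ID, and summed levels are 7.24 and 6.12 CPM against 19.1 and 23.2 CPM.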

How the data were processed

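The authors' deposited table holds read counts per gene ID, not normalized, 1 column per library. Each of the 12 columns matched 1 sample by name, and 0 other columns were present. GSNAP and SAMtools appear, without versions, in the submitters' processing notes. Genome, annotation, counter and use of strand were not given in the sources used here. All values were even (0 odd), as if both mates of a pair were counted, so 6 counts were taken as 3 read pairs.

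Counts were scaled by TMM and filtered by filterByExpr (minimum count 10) over the 5 groups, and tested in edgeR 4.0.16 (R 4.3.3) with the quasi-likelihood F-test in its default form, 1 mean per group over all libraries, with Benjamini-Hochberg adjustment over 36410 IDs and a threshold of 0.05. Standard errors come from the F statistic. DESeq2 1.42.0, which gave no adjusted p for 3550 IDs, was an alternative. The others changed the scaling (DESeq2's size factors, upper quartile), filters, thresholds or libraries used, halved the counts, added the replicate number as a block, or left out 1 library at a time. The code was tested on simulated data. Exact intervals are Clopper-Pearson at 95%, and floors are 3 read pairs per library. Both cover counting error only.

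IDs were named by class: among those without overlap that averaged at least 5 CPM in the 4 libraries, the 2 higher and 2 lower with the smallest edgeR p in each class and among those from 100 CPM upward. The 2 IDs near 0 in the control with the highest PEG-1 level and the ID with the smallest p were added. Other IDs were named after their values were seen. The members, lists, rule and tests were chosen with earlier results of these data known. No reference sequence could be tied to an ID, so none is shown.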

Additional observations from a re-analysis of the deposited data

How the results depend on the processing

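Over the alternatives, 0 of the 18 named IDs changed direction. The edgeR count of 0 was also 0 with each library left out, with other scalings and filters, with halved counts and with the newer quasi-likelihood method (added after seeing the data; smallest adjusted p 0.626). It was 1 with the PEG libraries alone, 1 with the 4 libraries alone and 1 with a replicate block. DESeq2 called 145, or 10 to 147 with 1 of the 4 libraries left out, and 13 of the 18 named IDs. The labels do not say what a replicate number has in common between groups, so the main fit did not pair libraries by it. Same-numbered libraries deviated together over 17413 IDs in each pair of PEG groups (r = 0.534 for PEG-1 and control, 0.688 for PEG-2 and control, 0.552 for PEG-1 and PEG-2). Under the replicate block 3677 IDs had an unadjusted p under 0.05, against 1310 without it, and the edgeR adjusted p of the 18 named IDs ran from 0.0565 to 0.181. The called ID was not among them.

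IDs at least 2-fold higher numbered 1209 and ran from 1611 to 3481 with 1 library left out. They numbered 1816 without a filter, 371 with at least 5 CPM in 2 libraries, 5367 without a fold minimum and 393 at 4-fold. The 1062 lower ones ran from 1783 to 3426, and numbered 1762, 182, 5625 and 252 under the same settings. From 5 CPM upward the 266 higher ran from 175 to 722 and the 112 lower from 184 to 606. IDs from near 0 numbered 7 at 2 counts and 4 at 5 CPM, with 12 to 48 on leaving out a library, and the reverse 4 to 10. The differences in share of counts ranged over -0.300 to 0.232 percentage points (joined), -0.111 to 0.215 (ERF only) and -0.184 to 0.148 (ERC only) on leaving out a library, and were -0.307, 0.259 and 0.0474 without the 100 most abundant IDs. Median log2 fold changes were -0.0216, 0.00382 and 0 (joined, ERF only, ERC only) with DESeq2's size factors and -0.0266, -0.0150 and -0.0262 with the 5 CPM filter. On leaving out a library they ran from -0.0479 to 0.00205, -0.0364 to 0.0357 and -0.0350 to 0.0309. A group left with 1 library meets the rules of no overlap and of near 0 to expressed more easily, and the fold changes shift too. Counts under these rules with a library left out are therefore not like for like with the main counts. The cause of the other shifts was not tested. Counting error limits the IDs under 1 CPM most.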
